A study of Lactuca sativa with 36 samples.

Results

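The early response of lettuce to cadmium (Cd) was compared between roots and leaves. For each gene the change from day 0 to day 1 in leaves was subtracted from the same change in roots, so that a positive difference means a higher change in roots. The comparison used 12 of the 36 libraries, namely RCd0, RCd1, LCd0 and LCd1 with 3 libraries each, chosen by tissue, treatment and day and not by any measured value. R stands for roots, L for leaves, Cd for 50 µmol/L CdCl2 without melatonin and the last digit for the day. All plants were Italian lettuce seedlings grown for 20 days before treatment, and all 4 groups lacked melatonin. Day 0 marks the beginning of the Cd treatment, and none of the 12 sequenced groups was kept without Cd to day 1. The effect of 1 day of Cd and that of 1 day of growth cannot be told apart in these groups. The same subtraction was made in 12 other libraries from plants given 1 µmol/L melatonin before the same CdCl2 (RCdM0, RCdM1, LCdM0 and LCdM1).

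Roots meet Cd first, since the metal enters the plant from the nutrient solution through uptake systems for essential metals. Cd binds thiol groups, and plants are known to answer it with sulfur assimilation, thiol peptides, antioxidant enzymes and a changed set of metal transporters. Roots also take up and reduce nitrate and build lignified walls with the help of peroxidases, while leaves carry out photosynthesis and much of the assimilation of sulfur in the chloroplast.

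The 12 libraries held 47292380 to 62179038 clean reads, and 15515 to 16160 genes reached 1 FPKM (fragments per kilobase of transcript, scaled to library depth). Libraries of a group correlated at 0.958 to 0.974 on log2(FPKM + 1). The tissue labels were checked with photosynthesis genes. The 17 antenna protein genes summed to 115180 to 117257 FPKM in LCd0, 79872 to 93957 in LCd1, 199.8 to 251 in RCd0 and 141 to 211 in RCd1. The 19 genes with peroxidase activity, a list of root character that does not define the tissue, summed to 3567 to 4409 FPKM in RCd0 and 1427 to 1928 in RCd1, against 93.0 to 126 in the leaf libraries. These are bulk tissues, so fewer cells of a type and less RNA per cell cannot be told apart.

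Of 18056 genes tested, 1152 changed differently in roots and leaves (limma, Benjamini-Hochberg adjusted p under 0.05), which is 6.38% of the genes. The difference was positive for 686 genes (3.8%) and negative for 466 (2.58%). Its size had a median of 1.31 on the log2(FPKM + 1) scale with a median SE of 0.32, and this scale understates changes of low genes. Within roots 616 genes rose (3.41%) and 704 fell (3.9%), 7.31% in all. Within leaves 342 rose (1.89%) and 517 fell (2.86%), 4.76% in all. Leaving out 1 library at a time gave 711 to 1175 genes for the difference, with 711 without RCd1 replicate 3, 721 without LCd0 replicate 3, 735 without RCd0 replicate 3 and 749 without LCd1 replicate 3. The root count of 1320 was 727 without RCd0 replicate 3 and 768 without RCd1 replicate 3. The leaf count of 859 was 436 without LCd0 replicate 3, 467 without LCd1 replicate 1 and 417 without LCd1 replicate 3. RCd1 replicate 3 and LCd0 replicate 3 had the lowest shares of bases at Q30 of their tissue among these libraries, 91.35% and 92.43%, and 951 genes passed for the difference with Q30 as a covariate. The compared groups were also fitted alone, in separate fits with RCd0 and RCd1 for roots and LCd0 and LCd1 for leaves. Then 734 genes passed for the difference, 756 for roots and 56 for leaves.

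The genes that passed were sorted by which tissue had itself changed. The root change alone passed for 533 of the 1152, with 267 positive and 266 negative differences. The leaf change alone passed for 305, with 192 positive and 113 negative differences. Both tissues had changed, in opposite directions, for 51 genes, 43 of them higher in roots and lower in leaves and 8 the reverse. That number was 21 without RCd0 replicate 3, 23 without RCd1 replicate 3, 26 without LCd1 replicate 3, 28 without LCd0 replicate 3, 31 without LCd1 replicate 2, and 32 and 33 without replicates 2 and 1 of RCd1. For the other 263 neither change passed on its own although their difference did. A further 38 genes passed in both tissues with the same direction, 18 higher and 20 lower, and for none of these did the difference pass (limma, 1 at an unadjusted p under 0.05). A call in a single tissue did not by itself mark a difference, since 698 genes called in roots alone and 465 called in leaves alone did not pass the test of the difference. Over all genes the root and leaf changes had a Pearson r of -0.05, given as a description across genes that share libraries.

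**Figure D1:**
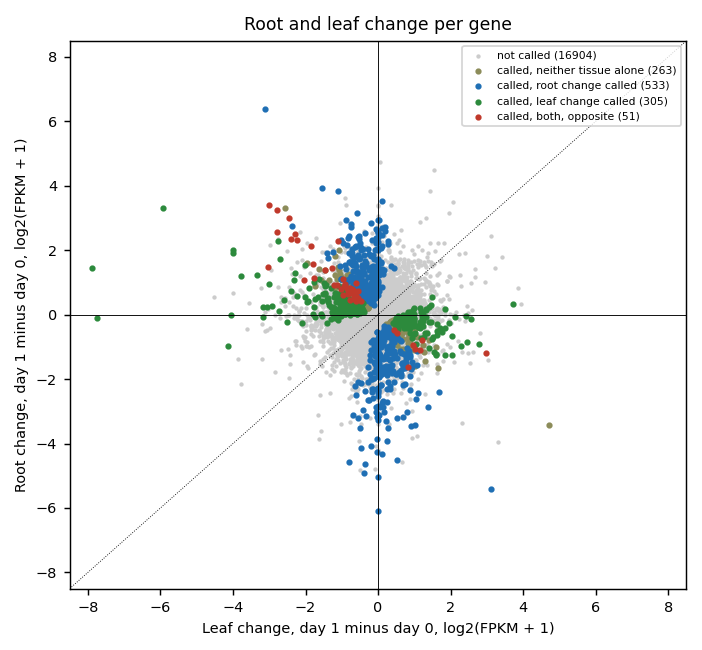
Root change (y axis) against leaf change (x axis) from day 0 to day 1 under Cd, both on log2(FPKM + 1), 1 point per gene. Colours mark the 533, 305, 51 and 263 genes of the classes described, the dotted line marks equal change, and 1 gene lies outside the axes.

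Most of the genes that differed were measured in both organs. Of the 1152, 93 stayed under 1 FPKM in all 6 leaf libraries (1242 of the tested genes did) and 27 in all 6 root libraries (952 of the tested genes did), which left 1032 that reached 1 FPKM somewhere in both. The organ in which the genes stood higher was read from RCdM0 and LCdM0, libraries that the comparison did not use (limma, adjusted p under 0.05). Genes with a positive difference were higher in leaves there in 54.4% of cases and higher in roots in 19.1%. Genes with a negative difference were higher in roots in 61.8% and higher in leaves in 15.2%. Over all tested genes the shares were 28.6% higher in leaves and 33.4% higher in roots.

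The 51 genes with opposite changes include Lsat_1_v5_gn_8_10740, which carries an antioxidant activity term. In roots Lsat_1_v5_gn_8_10740 was at 58.5, 76.8 and 41.8 FPKM on day 0 and 326, 293 and 364 on day 1. The leaf libraries gave 1216, 787 and 988 FPKM on day 0 and 280.3, 193 and 149 on day 1. The libraries of the 2 days did not overlap in either tissue, and the difference was 4.78 (SE 0.43, adjusted p = 9.8e-08). On day 5 it stood at 390.3, 381 and 238 FPKM in roots and 469, 340.4 and 344 in leaves. Among all 51 genes, the positive difference was largest for Lsat_1_v5_gn_7_13441, which has no term in the tables used. In roots Lsat_1_v5_gn_7_13441 was at 1.26, 0.702 and 0.537 FPKM on day 0 and 20.4, 12.1 and 23.5 on day 1. Its leaf level was 20.1, 16.1 and 18.9 FPKM on day 0 and 5.77, 0 and 1.06 on day 1. Its root libraries of day 1 all lay above those of day 0 and its leaf libraries all lay below, with a difference of 6.40 (SE 0.79, adjusted p = 1.5e-05). Lsat_1_v5_gn_4_62861, also without a term, differed by 6.02 (SE 0.79, adjusted p = 4.1e-05). Its root level was 4.12, 2.67 and 1.07 FPKM on day 0 and 35.6, 21.7 and 37.8 on day 1. The new genes Novelgene1575 and Novelgene0650 differed by 5.44 (SE 0.95, adjusted p = 0.00083) and 5.35 (SE 0.94, adjusted p = 0.00089). Novelgene0650 was less even in leaves, where it stood at 140.4, 3.92 and 17.1 FPKM on day 1, and its call was lost with the compared groups alone.

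In the reverse direction, Lsat_1_v5_gn_9_26160 fell in roots and rose in leaves. Its terms include protein-disulfide reductase activity, the reduction of disulfide bonds in proteins. In roots Lsat_1_v5_gn_9_26160 was at 50.7, 43.4 and 84.6 FPKM on day 0 and 21.6, 28.6 and 23.8 on day 1. In leaves it was at 3.4, 2.94 and 2.08 FPKM on day 0 and 16.4, 39.4 and 35.2 on day 1. No library of day 1 overlapped with day 0 in either tissue, and the difference was -4.15 (SE 0.51, adjusted p = 1.5e-05). Lsat_1_v5_gn_7_60120, Lsat_1_v5_gn_6_19780 and Novelgene1694 have no term. In roots Lsat_1_v5_gn_7_60120 was at 106, 115 and 197 FPKM on day 0 and 57.4, 39.5 and 34.1 on day 1. The leaf libraries gave 7.65, 8.04 and 8.8 FPKM on day 0 and 13.3, 15.6 and 17.3 on day 1. Its difference was -2.46 (SE 0.34, adjusted p = 8.1e-05). For Lsat_1_v5_gn_6_19780 the difference was -2.26 (SE 0.35, adjusted p = 0.00023) and for Novelgene1694 it was -2.09 (SE 0.36, adjusted p = 0.00085). All 3 fell in every root library of day 1 relative to every one of day 0 and rose in every leaf library.

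**Figure D2:**
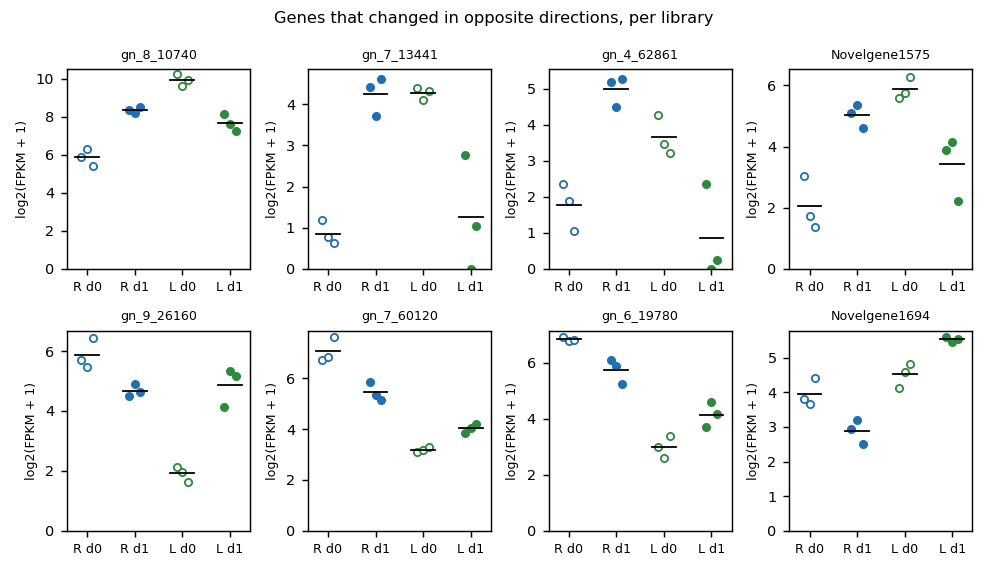
Level of 8 genes that changed in opposite directions, as log2(FPKM + 1) per library, with roots in blue, leaves in green, day 0 open, day 1 filled and bars at the group mean. The upper row rose in roots and fell in leaves, and the lower row did the reverse.

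Genes were next grouped by 28 KEGG pathways and GO terms. The lists come from the study, which chose them on these libraries, so they are no independent evidence of a direction. Their genes were picked as changed, so a share above that of all genes tested is no evidence about a list either. The counts of each list stand against these shares of all genes tested. The difference was positive for 3.8% and negative for 2.58%. In roots 3.41% rose and 3.9% fell, and in leaves 1.89% rose and 2.86% fell. In the nitrogen metabolism list, which covers nitrate uptake, reduction and assimilation into amino acids, the difference was negative for 7 of 11 genes and positive for none. All 11 fell in roots and 1 fell in leaves. The median difference of the list was -1.66, against 0.04 over all genes tested. In roots Lsat_1_v5_gn_1_62501 was at 9.11, 7.69 and 9.44 FPKM on day 0 and 0.469, 0.85 and 0.273 on day 1. Its leaf level was 0, 0.108 and 0.313 FPKM on day 0 and 0.515, 0.092 and 0.166 on day 1. This gene, with a transmembrane transport term, was near 0 in leaves on both days and differed by -2.82 (SE 0.40, adjusted p = 9.2e-05). Lsat_1_v5_gn_7_94901 has terms for molybdenum ion binding and nitrate metabolism. In roots Lsat_1_v5_gn_7_94901 was at 59.7, 38.8 and 73.4 FPKM on day 0 and 8.29, 15 and 8.67 on day 1. Its leaf levels were 1.03, 2.18 and 1.75 FPKM on day 0 and 1.15, 1.39 and 1.45 on day 1, and the difference was -2.15 (SE 0.51, adjusted p = 0.011). Lsat_1_v5_gn_1_63521 differed by -2.15 (SE 0.61, adjusted p = 0.034), a call lost without any of 7 of the 12 libraries, with a pseudocount of 0.1 and with Q30 as a covariate. Of the 11 genes, 1 stayed under 1 FPKM in all 6 leaf libraries.

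The peroxidase list, whose enzymes oxidise phenolics with hydrogen peroxide and take part in lignin formation, also had more falls in roots. Of 18 genes tested, 5 had a negative difference and 1 a positive one, with a median of -1.02. In roots 7 fell and 1 rose, and in leaves none passed (limma, 2 at an unadjusted p under 0.05). Of the 18, 7 stayed under 1 FPKM in all 6 leaf libraries and could show little change there. In roots Lsat_1_v5_gn_3_102601 was at 55.1, 65.4 and 86.4 FPKM on day 0 and 1.33, 2.61 and 2.35 on day 1. In leaves it was at 0, 0 and 0 FPKM on day 0 and 0.508, 0.665 and 0.198 on day 1. Every root library of day 1 lay far below those of day 0, and the difference of -5.03 (SE 0.46, adjusted p = 1e-07) was the most negative among the annotated genes named, apart from a gene listed at 0 that is described separately. In roots Lsat_1_v5_gn_6_39000 was at 2.38, 5.63 and 8.25 FPKM on day 0 and 0, 0 and 0.0954 on day 1. It was at 0 in all 6 leaf libraries. Lsat_1_v5_gn_1_121761, also at 0 in all 6 leaf libraries, differed by -2.85 (SE 0.87, adjusted p = 0.049), but this call was lost without any 1 of the 12 libraries. In the phenylpropanoid list, which shares members with it, 4 genes had a positive and 7 a negative difference of 47 tested, with a median of -0.16. Lsat_1_v5_gn_3_13920 of that list went the other way. In roots Lsat_1_v5_gn_3_13920 was at 8.23, 4.91 and 2.21 FPKM on day 0 and 32, 41.8 and 23.9 on day 1. Its difference was 2.56 (SE 0.49, adjusted p = 0.0022) and its leaf level stayed under 1 FPKM.

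Genes of the sulfur and redox lists fell in leaves. In the sulfur metabolism list, which covers sulfate reduction and cysteine supply, all 5 genes tested fell in leaves and 1 fell in roots, and the difference was positive for 3, with a median of 1.79. In roots Lsat_1_v5_gn_7_16240 was at 236, 323 and 104 FPKM on day 0 and 478, 551 and 406 on day 1. The leaf libraries gave 1183, 755 and 753 FPKM on day 0 and 128, 58.4 and 82.7 on day 1. This gene, which also has antioxidant and cell redox terms, fell in every leaf library and differed by 4.59 (SE 0.67, adjusted p = 0.00012). Lsat_1_v5_gn_4_59381 is in the same lists. In roots Lsat_1_v5_gn_4_59381 was at 343, 426 and 267 FPKM on day 0 and 357, 748 and 482 on day 1. Its leaf level was 9003, 8413 and 6027 FPKM on day 0 and 1643, 1715 and 1565 on day 1. The leaf libraries of the 2 days were far apart while the root libraries overlapped, and the difference was 2.80 (SE 0.48, adjusted p = 0.00073). In the cell redox homeostasis list 3 of 12 genes had a positive difference and none a negative one, with 7 lower in leaves and none called in roots (limma, 2 at an unadjusted p under 0.05). In the antioxidant list, which overlaps with both the peroxidase and the redox list, 5 were positive and 5 negative of 30. In the glutathione list, the thiol from which metal-binding peptides are made, 1 of 6 was positive and 2 fell in leaves. The shares of all genes tested were 3.8% and 2.86%.

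The metal ion transport list had 8 genes with a positive difference and none with a negative one among 35 tested, with a median of 0.73. In roots 6 rose and 2 fell, and in leaves 4 fell. In roots Lsat_1_v5_gn_6_13481 was at 238, 158 and 126 FPKM on day 0 and 807, 623 and 822 on day 1. In leaves it was at 1437, 1472 and 1606 FPKM on day 0 and 1305, 178 and 306 on day 1. All root libraries rose, and in leaves replicate 1 of day 1 stayed close to day 0 while the other libraries fell. Its difference was 4.0 (SE 0.60, adjusted p = 0.00017). In roots Lsat_1_v5_gn_4_150921 was at 119.8, 106 and 109 FPKM on day 0 and 597, 478 and 697 on day 1. The leaf libraries gave 15.9, 17.4 and 12.9 FPKM on day 0 and 20.2, 6.2 and 4.05 on day 1. The root rise was the larger part of its difference of 3.21 (SE 0.82, adjusted p = 0.018), and the call was lost without LCd1 replicate 3 (limma, adjusted p = 0.0604) and with a pseudocount of 0.1. Lsat_1_v5_gn_8_106761 stood at 61.3, 0.416 and 4.84 FPKM in LCd1, again with replicate 1 apart, and differed by 4.43 (SE 1.08, adjusted p = 0.014), a call lost with the compared groups alone. In the copper ion binding list, in contrast, 3 of 31 had a negative difference and 6 fell in roots, against 2.58% and 3.9% of all genes tested. Lsat_1_v5_gn_4_30881 of that list was at 66.9, 67.2 and 75.9 FPKM in RCd0 and 9.26, 15.4 and 16.8 in RCd1, with a difference of -2.55 (SE 0.42, adjusted p = 0.00051).

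The ribosome list, which holds parts of the protein synthesis machinery, had its falls in leaves. Of 19 genes, 11 fell there, none was called in roots (limma, 2 at an unadjusted p under 0.05), and 8 had a positive difference and none a negative one, with a median of 1.02. Lsat_1_v5_gn_1_40241 of that list was at 604, 821 and 729 FPKM in LCd0 and 271, 356 and 402 in LCd1. In roots it was at 11.7, 18.4 and 7.22 FPKM in RCd0 and 32.1, 24.6 and 41.6 in RCd1. Neither its leaf change of -1.07 nor its root change of 1.38 passed on its own. Its difference was 2.45 (SE 0.64, adjusted p = 0.02), a call lost without RCd0 replicate 3 and without RCd1 replicate 3. Novelgene3146 differed by 1.49 (SE 0.26, adjusted p = 0.00089), but it stayed under 1 FPKM in all 6 root libraries and entered the test through leaves. In the rRNA processing list 6 of 19 rose in leaves, and 3 had a negative difference. In roots Lsat_1_v5_gn_1_70060 was at 18.8, 16.3 and 13.4 FPKM on day 0 and 14, 10.7 and 8.91 on day 1. Its leaf level was 5.92, 3.57 and 2.03 FPKM on day 0 and 9.52, 15.1 and 16 on day 1. This gene rose in all leaf libraries and differed by -2.14 (SE 0.48, adjusted p = 0.0083).

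In the terpenoid backbone list, the source of isoprenoid precursors, 5 of 15 had a positive difference, 4 rose in roots and 2 fell in leaves. In roots Lsat_1_v5_gn_2_92181 was at 32.3, 28.8 and 28.6 FPKM on day 0 and 95.7, 98.9 and 60.6 on day 1. In leaves it was at 58.1, 61.7 and 73.2 FPKM on day 0 and 26.6, 29 and 23.3 on day 1. The groups did not overlap in either tissue, and its difference was 2.70 (SE 0.52, adjusted p = 0.0022). In the steroid biosynthesis list, which makes membrane sterols, 4 of 11 had a negative difference and 4 fell in roots. In roots Lsat_1_v5_gn_3_32600 was at 441, 366 and 568 FPKM on day 0 and 180.2, 165 and 135 on day 1. The leaf libraries gave 139, 121 and 138 FPKM on day 0 and 128, 148 and 129 on day 1. The leaf change of 0.03 did not pass, and the difference was -1.53 (SE 0.24, adjusted p = 0.00026). In the starch and sucrose list 3 of 21 were negative and 6 fell in roots. In roots Lsat_1_v5_gn_2_128781 was at 42.2, 43.4 and 62.4 FPKM on day 0 and 7.15, 7.12 and 7.51 on day 1. Its leaf level stayed under 1 FPKM and its difference was -2.43 (SE 0.27, adjusted p = 3.9e-06), a call lost with a pseudocount of 0.1. Lsat_1_v5_gn_5_119340 of the same list differed by -3.25 (SE 0.62, adjusted p = 0.002).

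**Figure D3:**
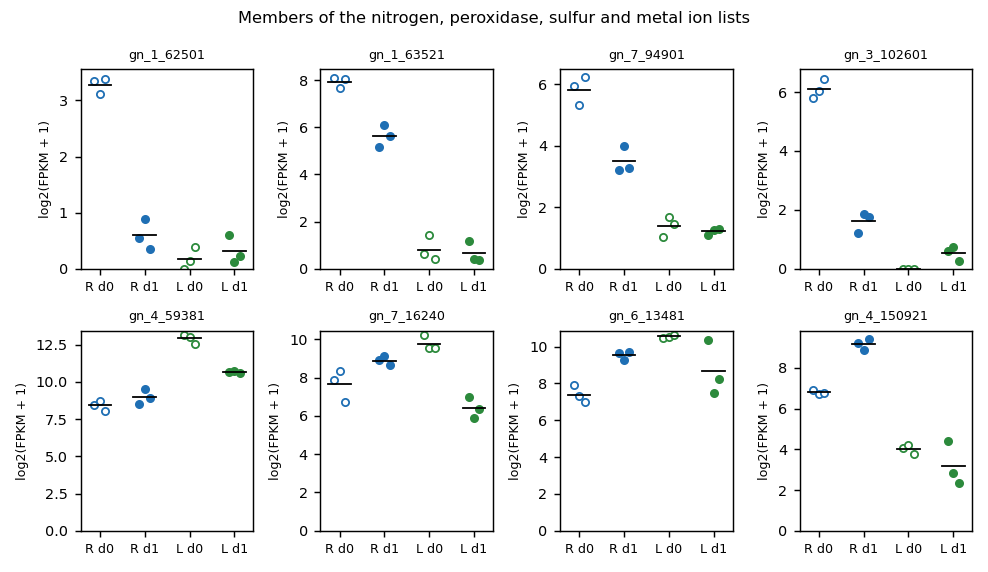
Level of 8 members of the nitrogen, peroxidase, sulfur and metal ion lists, as log2(FPKM + 1) per library, with symbols as in the plot of opposite changes. The first 4 genes fell in roots, the next pair fell in leaves, and the last pair rose in roots.

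The counts of the remaining lists are given beside a background of 3.8% positive and 2.58% negative among all genes tested. No list is set apart from it by its counts, since the genes were picked as changed. Positive and negative differences numbered 4 and 1 of 29 for glycolysis, 3 and 1 of 23 for carbon fixation, 1 and 3 of 34 for plant-pathogen interaction, and 2 and 0 of 9 for alpha-linolenic acid metabolism. The median difference of the glycolysis list was nevertheless negative, at -0.54. Of its genes, 8 fell and 0 rose in roots, and 4 fell in leaves. They numbered 1 and 1 of 39 for hormone signal transduction, 1 and 1 of 15 for cysteine and methionine metabolism, 1 and 1 of 21 for porphyrin metabolism, 1 and 1 of 19 for protein folding and 1 and 1 of 24 for tRNA processing. They numbered 1 and 0 of 27 for photosynthesis, 1 and 0 of 17 for antenna proteins, 1 and 0 of 8 for the circadian list and 1 and 0 of 9 for chitinases. The antenna gene and the negative carbon fixation gene are among those listed at 0 in a group, which are described separately. None of 16 cellulose genes passed (limma, 1 at an unadjusted p under 0.05). In the cysteine and methionine list 8 genes fell in roots and 4 in leaves. In the plant-pathogen list 7 genes rose and 2 fell in roots, and among chitinases, which cleave the chitin of fungal walls, 5 rose in roots and 2 in leaves. Photosynthesis genes fell as a sum in leaves, to 64.6% of the LCd0 mean in LCd1, but for all but 1 of them the difference between tissues did not pass.

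**Figure D4:**
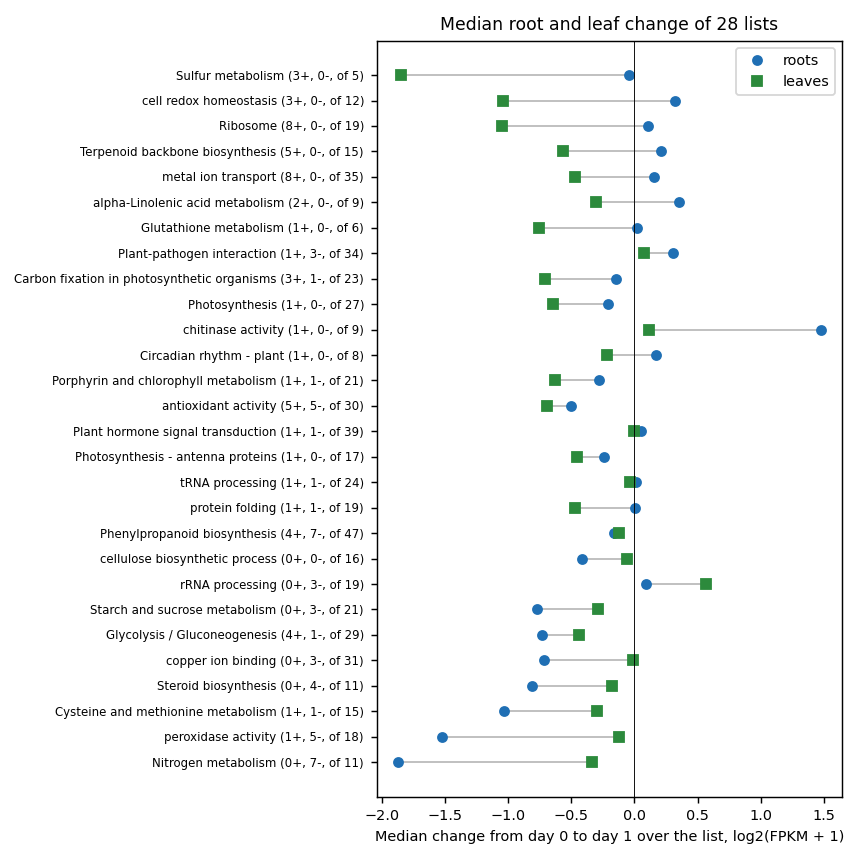
Median change from day 0 to day 1 of each of 28 lists in roots (blue circles) and leaves (green squares), on log2(FPKM + 1), with the number of genes of positive and negative difference beside each name. Nitrogen metabolism lies lowest in roots (median -1.87) and sulfur metabolism lowest in leaves (median -1.85).

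Other annotated genes with large differences carry broad terms. In roots Lsat_1_v5_gn_2_3421 was at 39.3, 75.4 and 25.5 FPKM on day 0 and 194, 213 and 127 on day 1. Its leaf level was 1556, 588 and 694 FPKM on day 0 and 73.2, 29 and 71 on day 1. This gene, with a catalytic activity term, fell in every leaf library and differed by 6.0 (SE 0.92, adjusted p = 0.00022). Lsat_1_v5_gn_1_14060, with a calcium ion binding term, differed by 5.11 (SE 1.16, adjusted p = 0.0083), a call lost with the compared groups alone. In roots Lsat_1_v5_gn_4_33880 was at 145, 156 and 314 FPKM on day 0 and 37.1, 21.3 and 14.4 on day 1. It fell in all root libraries and differed by -3.83 (SE 0.51, adjusted p = 4.7e-05). Lsat_1_v5_gn_1_28741, with a histone acetyltransferase term, differed by -3.52 (SE 0.71, adjusted p = 0.0033), and Lsat_1_v5_gn_9_31101 by -3.81 (SE 0.58, adjusted p = 0.00018). The latter was at 0, 0 and 0.424 FPKM in LCd0 and 0, 0 and 0.332 in LCd1, so it could show little change in leaves. For Lsat_1_v5_gn_6_96720, with NAD binding and glycolysis terms, the difference was -4.24 (SE 1.10, adjusted p = 0.021) and the call was lost without any 1 of 4 libraries. Among genes without a term, Novelgene2565 was at 50.7, 110.3 and 100.3 FPKM in RCd1 and at most 0.0207 in RCd0, and Novelgene3024 was at 467, 587 and 1201 FPKM in LCd0 and 3.71, 0.755 and 1.98 in LCd1. Both were uneven between replicates elsewhere. Novelgene2565 was at 16.2, 0.129 and 47.2 FPKM in LCd1, and Novelgene3024 at 5.7, 206 and 12.8 in RCd1. In LCdM0, also of day 0, Novelgene3024 was at 0.756, 0.844 and 1.5 FPKM.

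There were 4 genes listed at 0 in all 3 libraries of a group and at 20 FPKM or more in all 3 of the other day. An exact 0 can be a failed estimate, so levels and no size of change are given. Lsat_1_v5_gn_4_153980, with a carbon fixation term, was at 0 in LCd0 and at 44123, 69726 and 48760.2 FPKM in LCd1. Lsat_1_v5_gn_5_144981, an antenna protein gene, was at 177, 258 and 217 FPKM in LCd0 and at 0 in LCd1. Lsat_1_v5_gn_6_75140 was at 66.3, 96.9 and 47.4 FPKM in RCd0 and at 0 in RCd1. Novelgene2237 was at 38, 23.6 and 36 FPKM in RCd0 and at 0 in RCd1. All 4 had passed, and 1148 genes remained without them.

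Of 21 tested genes that the study names by identifier, 2 passed, against 6.38% of all genes tested. The SnRK2-like gene that it names has no entry in the values used here, so it was not removed by the filter on low values. The ascorbate peroxidase Novelgene1716, an enzyme that removes hydrogen peroxide, was at 344, 262 and 238 FPKM in RCd0 and 665, 516 and 553 in RCd1. In leaves it was at 451, 520.1 and 591 and 385, 359 and 305 FPKM. It rose in all root libraries, and the difference was 1.62 (SE 0.27, adjusted p = 0.00068). The peroxidase Lsat_1_v5_gn_9_8540 fell in leaves, from 647, 785 and 891 FPKM to 452, 429 and 546, with a difference of 1.08 (SE 0.28, adjusted p = 0.021) that was lost without any 1 of 4 libraries. The superoxide dismutase, lipoxygenase, thioredoxin, laccase and jasmonate-conjugating genes did not pass. Of 19 genes named by the study whose difference did not pass, 4 had an unadjusted p under 0.05 in limma. The thioredoxin gene Lsat_1_v5_gn_7_18261 fell in roots by 1.21 (limma, adjusted p = 0.013), and its difference was -1.30 (SE 0.43, adjusted p = 0.069).

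The 12 libraries with melatonin gave a separate measure of the same difference. There 98 genes passed, 30 positive (0.166%) and 68 negative (0.377%), 0.543% in all, and leaving out 1 library at a time gave 40 to 131, the lowest without LCdM1 replicate 2. Of the 1152 genes of the comparison without melatonin, 1080 had the same sign with melatonin, or 93.8%, against 66.0% of all genes tested. They passed there for 70 genes, all with the same sign. The median size in the direction found without melatonin was 1.31 without and 0.59 with melatonin, where the first is raised because the genes were chosen by it. Lsat_1_v5_gn_8_10740 differed by 3.00 with melatonin (limma, adjusted p = 0.00047), Lsat_1_v5_gn_9_26160 by -3.62 (limma, adjusted p = 0.00038) and Lsat_1_v5_gn_1_62501 by -2.31 (limma, adjusted p = 0.0034). Other named genes did not pass with melatonin. There the difference was 0.17 for Lsat_1_v5_gn_4_150921, 0.15 for Lsat_1_v5_gn_1_40241, 0.83 for Lsat_1_v5_gn_1_14060 and -0.41 for Lsat_1_v5_gn_5_122201. Without melatonin it was 3.21, 2.45, 5.11 and 1.89, and the test between the arms passed for none of them. Among the 51 genes with opposite changes, the difference kept its sign for 49 and passed for 10. The sign of the difference does not show that both tissues changed again. For Lsat_1_v5_gn_4_62861 the leaf change was -2.79 without and -0.25 with melatonin. Lsat_1_v5_gn_7_13441 was at 1.23, 3.5 and 6.1 FPKM in LCdM0, against 20.1, 16.1 and 18.9 in LCd0. In contrast, Lsat_1_v5_gn_8_10740 fell in leaves with melatonin too, from 810, 848 and 1110 FPKM to 360, 211 and 597. Of the 28 lists, 20 had a median difference of the same sign with melatonin and 8 of the other sign. The median was -1.41 with melatonin for nitrogen metabolism, 1.36 for sulfur metabolism, -0.46 for peroxidases and 0.29 for metal ion transport. It turned from 0.38 to -0.87 for photosynthesis, where 9 of 27 genes had the same sign in both arms, from 0.03 to -1.67 for antenna proteins, where 7 of 17 did, and from 0.42 to -0.79 for carbon fixation, where 13 of 23 did. Root levels of such genes were very low. The antenna sum was 424 to 824 FPKM in RCdM0 and 145 to 190 in RCdM1, against 115468 to 125075 in LCdM0. In leaves the photosynthesis sum was below day 0 in both arms, at 64.6% of the LCd0 mean in LCd1 and 79.2% in LCdM1. With melatonin 3 antenna protein genes passed with a negative and 1 with a positive difference, and 3 carbon fixation genes with a negative one. They include 2 genes listed at 0, where an exact 0 can be a failed estimate. Lsat_1_v5_gn_5_144981 (positive) was at 0 in all LCdM1 libraries and Lsat_1_v5_gn_4_153980 (negative) in all LCdM0 libraries. The direct test of whether the difference itself depended on melatonin passed for 8 genes (0.0443%), 3 of them positive (0.0166%) and 5 negative (0.0277%), with 908 at an unadjusted p under 0.05 in limma, and for 1 to 9 with 1 library left out. One of them was the peroxidase Lsat_1_v5_gn_3_102601, for which the difference was -1.56 with melatonin and -5.03 without. Its root levels on day 0 were 17.8, 22.1 and 7.76 FPKM in RCdM0, against 55.1, 65.4 and 86.4 in RCd0. On day 1 they were 2.34, 5.45 and 2.38 FPKM in RCdM1 and 1.33, 2.61 and 2.35 in RCd1. Another of them was Lsat_1_v5_gn_4_153980, which is listed at 0 in LCd0 and LCdM0, so no size is given.

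**Figure D5:**
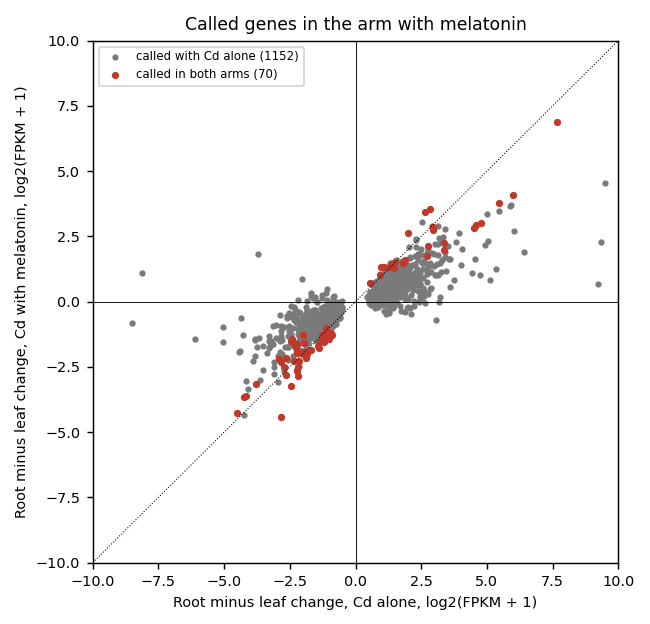
Difference between root and leaf change with melatonin (y axis) against that with Cd alone (x axis) for the 1152 genes that passed with Cd alone, on log2(FPKM + 1), with the 70 that passed in both in red. The dotted line marks equal values, 1080 genes have the same sign in both arms, and 1 gene lies outside the axes.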

How the data were processed

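RNA was sequenced from roots and leaves of Italian lettuce, with 3 biological repeats in each of 12 groups, and 4 groups were compared here. The deposited values are FPKM per isoform. Per the study's methods and the labels, clean paired-end reads were aligned by the authors to a reference of long-read transcripts with TopHat2 2.0.12, counted with HTSeq and turned into FPKM; the submitters' processing notes name Bowtie2 2.0.6 and the methods another release. The tool that made the isoform values is not named in the sources used here, and nothing says that libraries were scaled to each other. The 59872 isoforms were summed to 19584 genes. Those reaching 1 FPKM in 3 or more of the 36 libraries were kept (18056).

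limma 3.58.1 (R 4.3.3) was fitted to log2(FPKM + 1) with 1 mean for each of 12 groups (24 residual degrees of freedom), with a trended prior, and p-values were adjusted by the Benjamini-Hochberg method over all 18056 genes. Counts per gene were not used here, so no counting error was computed. Alternatives were another pseudocount (0.1), no filter, a filter in both tissues, median-ratio scaling, the compared groups alone, the share of bases at Q30 as a covariate, replicate blocks and each library left out. The code was tested on simulated data. The lists are genes under a KEGG or GO term in the study's tables, of which 970 of 1480 gene cells were complete, so the lists are partial. The authors' own comparisons were not used. The labels of 2 libraries with melatonin give 21 days before Cd where the others give 20, and they were grouped by title.

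Named genes were, among those that passed and did not overlap between days in at least 1 tissue, the 8 largest positive and 8 largest negative with a term and 3 of each without, the 4 largest of each sign among opposite changes, up to 3 per list with at least 3 genes passing, and genes the study names. The members and lists were chosen with earlier results of these data known.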

Additional observations from a re-analysis of the deposited data

Results flagged for a closer look

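The change from day 0 to day 1 differed between roots and leaves, by the test of the difference itself, for 1152 genes and for each named gene given here with its difference of root and leaf change on log2(FPKM + 1). The difference was positive for Lsat_1_v5_gn_0_7601 (2.01), Lsat_1_v5_gn_1_14060 (5.11), Lsat_1_v5_gn_1_40241 (2.45), Lsat_1_v5_gn_1_90901 (1.49), Lsat_1_v5_gn_2_3421 (6.0), Lsat_1_v5_gn_2_92181 (2.70), Lsat_1_v5_gn_2_93080 (9.24), Lsat_1_v5_gn_2_95161 (1.38), Lsat_1_v5_gn_3_13920 (2.56), Lsat_1_v5_gn_4_137741 (1.02), Lsat_1_v5_gn_4_150921 (3.21), Lsat_1_v5_gn_4_59381 (2.80), Lsat_1_v5_gn_4_62861 (6.02), Lsat_1_v5_gn_4_85200 (5.88), Lsat_1_v5_gn_5_122201 (1.89), Lsat_1_v5_gn_5_18180 (1.65), Lsat_1_v5_gn_6_13481 (4.0), Lsat_1_v5_gn_7_13441 (6.40), Lsat_1_v5_gn_7_16240 (4.59), Lsat_1_v5_gn_7_69401 (1.58), Lsat_1_v5_gn_8_106761 (4.43), Lsat_1_v5_gn_8_10740 (4.78), Lsat_1_v5_gn_8_125881 (1.20), Lsat_1_v5_gn_9_41160 (3.54), Lsat_1_v5_gn_9_8540 (1.08), Novelgene0650 (5.35), Novelgene1575 (5.44), Novelgene1716 (1.62), Novelgene2565 (9.49), Novelgene3024 (9.34) and Novelgene3146 (1.49). It was negative for Lsat_1_v5_gn_1_121761 (-2.85), Lsat_1_v5_gn_1_28741 (-3.52), Lsat_1_v5_gn_1_62501 (-2.82), Lsat_1_v5_gn_1_63521 (-2.15), Lsat_1_v5_gn_1_70060 (-2.14), Lsat_1_v5_gn_2_128781 (-2.43), Lsat_1_v5_gn_2_34600 (-8.51), Lsat_1_v5_gn_3_102601 (-5.03), Lsat_1_v5_gn_3_135061 (-3.29), Lsat_1_v5_gn_3_32600 (-1.53), Lsat_1_v5_gn_3_47540 (-1.45), Lsat_1_v5_gn_3_98441 (-2.19), Lsat_1_v5_gn_4_30881 (-2.55), Lsat_1_v5_gn_4_33880 (-3.83), Lsat_1_v5_gn_4_58821 (-0.74), Lsat_1_v5_gn_5_119080 (-2.13), Lsat_1_v5_gn_5_119340 (-3.25), Lsat_1_v5_gn_5_14121 (-0.89), Lsat_1_v5_gn_5_80860 (-1.82), Lsat_1_v5_gn_6_19780 (-2.26), Lsat_1_v5_gn_6_39000 (-2.52), Lsat_1_v5_gn_6_96720 (-4.24), Lsat_1_v5_gn_7_11501 (-8.14), Lsat_1_v5_gn_7_12240 (-2.68), Lsat_1_v5_gn_7_32801 (-1.73), Lsat_1_v5_gn_7_60120 (-2.46), Lsat_1_v5_gn_7_94901 (-2.15), Lsat_1_v5_gn_9_26160 (-4.15), Lsat_1_v5_gn_9_31101 (-3.81), Lsat_1_v5_gn_9_52921 (-1.84) and Novelgene1694 (-2.09). Leaving out 1 of the 12 libraries at a time ended the call for 22 of these genes: Lsat_1_v5_gn_1_121761 in 12, Lsat_1_v5_gn_3_135061 in 10, Lsat_1_v5_gn_2_95161 and Lsat_1_v5_gn_9_41160 in 9, Lsat_1_v5_gn_0_7601, Lsat_1_v5_gn_1_63521, Lsat_1_v5_gn_4_137741 and Lsat_1_v5_gn_7_69401 in 7, Lsat_1_v5_gn_2_34600, Lsat_1_v5_gn_4_58821 and Lsat_1_v5_gn_4_85200 in 6, Lsat_1_v5_gn_5_119080 and Lsat_1_v5_gn_5_14121 in 5, Lsat_1_v5_gn_3_98441, Lsat_1_v5_gn_6_96720, Lsat_1_v5_gn_8_125881 and Lsat_1_v5_gn_9_8540 in 4, Lsat_1_v5_gn_1_40241 and Lsat_1_v5_gn_2_93080 in 2 and Lsat_1_v5_gn_1_90901, Lsat_1_v5_gn_4_150921 and Lsat_1_v5_gn_5_18180 in 1 of 12 such fits. The values of Lsat_1_v5_gn_2_34600 and Lsat_1_v5_gn_7_11501 rest on groups listed at 0, depend on the pseudocount and are no size of change. Those of Novelgene2565 and Lsat_1_v5_gn_2_93080 rest on RCd0 levels of at most 0.0207 and 0.328 FPKM and also depend on the pseudocount. Replicates of RCd1 were uneven, at 37.1, 0.286 and 24.6 FPKM for Lsat_1_v5_gn_2_93080 and 5.7, 206 and 12.8 for Novelgene3024. For 3 further genes, listed at 0 in a group, only the mean level of the highest group is given, which was 54203 FPKM for Lsat_1_v5_gn_4_153980, 218 for Lsat_1_v5_gn_5_144981 and 70.2 for Lsat_1_v5_gn_6_75140. The difference also differed between the arms with and without melatonin for Lsat_1_v5_gn_3_102601, by 3.46, as melatonin minus Cd alone.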

How the results depend on the processing

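The count of genes whose change differed between roots and leaves stayed within 1.5 times of 1152 with a pseudocount of 0.1 (948), no filter (1153), a filter in both tissues (1035), median-ratio scaling (1141) and Q30 as a covariate (951). Each comparison was also fitted separately on its own groups alone, where fewer libraries set the spread. The count was then 734 for the difference, 756 for the root change, 56 for the leaf change and 55 with melatonin. The count for the difference between the arms was then 12, against 8 in the main fit. Why the leaf count fell the most was not tested. Leaving out 1 library at a time gave 711 to 1175 for the difference, 727 to 1359 for the root change and 417 to 861 for the leaf change. With melatonin the 98 genes became 40 to 131 with 1 library left out, 64 with the filter in both tissues, 50 with Q30 as a covariate and 61 with the replicate block of root and leaf. The 8 genes that differed between the arms became 1 to 9 with 1 library left out and 1 with the filter in both tissues and with Q30. The 51 genes with opposite changes became 21 to 41 with 1 library left out. Of 65 named genes that passed, 36 passed in all alternatives run for them, 22 lost the call in at least 1 leave-one-out fit, 23 lost it in at least 1 other alternative, and none changed sign. Some genes that had not passed changed sign. Lsat_1_v5_gn_5_4600 did so over a wide range, at 0.92 with a pseudocount of 0.1 and at -1.18 to 0.59 with 1 library left out. It was at 0, 10.7 and 7.48 FPKM in LCd1. The others went slightly below 0. Lsat_1_v5_gn_4_34281 was at -0.16 with Q30 as a covariate and at -0.0338 to 0.27 with 1 library left out. With 1 library left out, Lsat_1_v5_gn_2_58341 was at -0.0637 to 0.23 and Lsat_1_v5_gn_7_2120 at -0.0346 to 0.28. Lsat_1_v5_gn_8_12380 was then at -0.0388 to 0.16 and Novelgene2763 at -0.0332 to 0.47.

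Nothing in the labels says that a replicate number marks a shared batch, and same-numbered libraries had deviations that correlated at -0.0366 to 0.0884 between roots and leaves, -0.0225 to 0.0661 between RCd0 and RCd1 and -0.27 to -0.00338 between LCd0 and LCd1, so the numbers were not used as pairs. Each of the 3 RCd1 libraries correlated best with the LCd1 library of its own number, a hint from the data and not the design. With the replicate block by number 1176 genes passed for the difference, with the block of root and leaf 1056, and for the difference between the arms 3 and 1.

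Leaving out the genes listed at 0, which was chosen after seeing the data, left 1148 genes for the difference. Depth is known only as clean reads, so no limit of detection was computed, and small values were not read as absence.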
